A study of Rattus norvegicus with 9 samples.

Results

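Healing of a circular osteotomy of the rat tibia without shock wave treatment was compared between the library TO 4d 24h and the library TO 2d 0h, with 1 library on each side. The members were the cells with at least 200 detected genes and at most 20% mitochondrial UMIs (unique molecular identifiers, each standing for 1 captured RNA molecule). There were 28615 such cells, 14511 from TO 2d 0h and 14104 from TO 4d 24h, out of 114232 in the 8 libraries analysed. TO stands for tibial osteotomy alone. The first library in time, TO 2d 0h, was taken 2 days after injury, when treated rats had their first session of radial extracorporeal shock waves, and TO 4d 24h was taken 24 h after the time of the second session, 5 days after injury. They are called day 2 and day 5 below, names that stand for these 2 libraries and not for all libraries of those days. Both groups were male Sprague-Dawley rats of 6 to 8 weeks that carried, besides the hole drilled through the proximal tibia, a skin wound on the back of the foot, so that no uninjured bone enters the comparison. The number of rats behind each library is not given in the sources used here, and differences between animals, tissue collections and time points cannot be told apart. With 1 library a side no test was possible, and every value is an effect size. Intervals in parentheses are exact 95% intervals and cover counting error only.

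Bone repair after a drilled defect begins with a clot and an inflammatory phase, in which neutrophils and then monocytes enter from the marrow and blood and release chemokines that bring in more cells. Macrophages clear the debris, and mesenchymal progenitors lay down a provisional matrix that osteoblasts replace with bone. Because the defect opens the marrow cavity, tissue taken there also holds the blood-forming marrow, with B-cell precursors, granulocyte precursors and erythroblasts.

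Gene by gene, TO 2d 0h stood apart from the 7 other libraries for several of the genes below. Levels are in CPM, a gene's UMIs over all UMIs of the class in that library on the usual counts-per-million scale. In mature-neutrophil-like cells the chemokine gene Cxcl3 reached a level of 2612 CPM there, 119 in TO 2d 4h, taken 4 h later on the same day, 21.1 on day 5, and 55 to 172 over the 6 other libraries. Lcn2 in immature-neutrophil-like cells stood the other way, at 185 CPM on day 2, 2287 in TO 2d 4h and 3554 on day 5. The 2 compared libraries had similar depth, with a median of 4938 and 4699 UMIs per cell and 3.43% and 4.2% mitochondrial UMIs, and shared 57 cell barcodes, 48 of them among cells kept. After 344 and 381 probable doublets were left out, 14167 and 13723 cells remained. Each cell was put in the class whose marker genes it expressed most, and a class is called after a cell type only in the sense of those markers.

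The classes held the markers of their names, which follows from how cells were assigned. The values below use those same markers, so they describe the classes and do not test their names. In mature-neutrophil-like cells the median of S100a8 and S100a9 together was 1640.1 UMIs per 10000 on day 2 and 1989.8 on day 5, against 13 and 11.1 in progenitor-B-like cells, which do not make these proteins. RNA free in the suspension gives UMIs in cells that do not express a gene, so the value in progenitor-B-like cells is given below as a background. How much free RNA each library held was not tested. The erythroid-like median of Hba-a1 and Hba-a2 was 1359 and 2038 UMIs per 10000 on day 2 and day 5, against 9.83 and 8.03 in progenitor-B-like cells. Macrophage-like cells had 105 and 138 UMIs of C1qa and C1qb per 10000, and the median in every other class compared was 0. Osteoblast-like cells had 564 and 1469 UMIs of Col1a1 and Bglap per 10000, where the background in progenitor-B-like cells was 2.41 and 4.28.

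Several of the genes with the largest differences encode secreted proteins that neutrophils and monocytes release or respond to, and the promoters of 3 of them are shown here because the same genes recur in many cell classes. Cxcl1 and Cxcl2 are neighbouring genes for chemokines that attract neutrophils through the receptor Cxcr2, and Lcn2 encodes the iron-siderophore-binding granule protein lipocalin-2. Each window runs from 250 bases before to 50 bases after the gene's start (RefSeq, rat build GRCr8), and capitals mark matches, on either strand, of a form of the NF-kB motif that reads GGG, then any 3 bases, then TTCC.
Cxcl1, chr14:17479272-17479571, minus strand: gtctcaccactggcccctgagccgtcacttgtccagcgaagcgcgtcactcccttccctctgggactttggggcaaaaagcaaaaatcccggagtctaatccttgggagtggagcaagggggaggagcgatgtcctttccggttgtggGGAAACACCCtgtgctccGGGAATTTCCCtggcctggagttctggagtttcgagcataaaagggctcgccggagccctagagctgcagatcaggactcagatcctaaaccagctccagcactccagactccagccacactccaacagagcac
Cxcl2, chr14:17467206-17467505, minus strand: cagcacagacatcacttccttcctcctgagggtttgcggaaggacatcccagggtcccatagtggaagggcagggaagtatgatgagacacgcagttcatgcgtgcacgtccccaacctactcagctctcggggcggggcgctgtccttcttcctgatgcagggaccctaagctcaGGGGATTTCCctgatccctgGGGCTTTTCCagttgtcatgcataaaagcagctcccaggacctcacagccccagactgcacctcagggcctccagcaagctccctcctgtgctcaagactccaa
Lcn2, chr3:36081731-36082030, minus strand: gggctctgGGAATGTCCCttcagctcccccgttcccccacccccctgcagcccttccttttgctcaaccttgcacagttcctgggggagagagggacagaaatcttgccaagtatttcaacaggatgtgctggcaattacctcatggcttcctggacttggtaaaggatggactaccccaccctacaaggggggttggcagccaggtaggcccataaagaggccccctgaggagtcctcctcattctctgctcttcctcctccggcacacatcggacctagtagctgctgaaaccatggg
The Cxcl1 window held 3 matches, beginning 102, 84 and 83 bases before the start, of which the last 2 overlap on opposite strands. In the Cxcl2 window there were 2, at 74 and 54 bases, and in the Lcn2 window 1, at 242 bases. Of 33469 such windows of 300 bases, 5.37% held a match and 0.23% held 2 or more. A match describes the letters only, and binding was not measured. A window was looked up for 5 genes and found for 3, the others being Cxcl3 and Hp.

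On day 5 the share of progenitor-B-like cells was lower and that of mature-neutrophil-like cells higher than on day 2. Progenitor-B-like cells, the dividing and rearranging precursors of B cells, made up 52% (51.2 to 52.8, 7364 cells) on day 2 and 44% (43.2 to 44.8, 6038 cells) on day 5, a ratio of 0.846 (0.818 to 0.876). Mature-neutrophil-like cells made up 5.87% (5.48 to 6.27, 831 cells) on day 2 and 11.6% (11.1 to 12.1, 1591 cells) on day 5, a ratio of 1.98 (1.82 to 2.15). The 6 other libraries ranged over 40.2% to 54.7% for the first class and 2.98% to 14.5% for the second, so both values of each class lie within the spread of the series. Immature-neutrophil-like cells made up 4.8% (4.45 to 5.16, 680 cells) on day 2 and 6.15% (5.75 to 6.57, 844 cells) on day 5, and here both values were below the 6.78% to 15.7% of the other libraries. Their ratio was 1.28 (1.16 to 1.42) by marker score but 0.852 when whole clusters of cells were named in place of single cells, so its direction depends on how cells are named. Of mature-neutrophil-like cells, 6.26% on day 2 and 3.9% on day 5 scored nearly as high for another class.

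Monocyte-like cells made up 9.69% (9.21 to 10.2, 1373 cells) on day 2 and 9.06% (8.58 to 9.55, 1243 cells) on day 5, mature-B-like cells 9.33% and 8.76%, and both ratios were near 1, at 0.935 (0.865 to 1.01) and 0.939 (0.867 to 1.02), though naming whole clusters gave 1.17 (1.08 to 1.27) for monocyte-like cells. Granulocyte-monocyte-progenitor-like cells, the precursors of both lineages, had a ratio of 1.26 (1.11 to 1.44), erythroid-like cells 1.18 (1.06 to 1.3) and T/NK-cell-like cells 1.34 (1.05 to 1.72). Plasma-cell-like cells were less frequent, with a ratio of 0.729 (0.572 to 0.926), but 36.5% and 33.3% of them scored nearly as high for another class and no cluster took that name. By contrast mast-cell/basophil-like cells were more frequent, with a ratio of 1.38 (1.05 to 1.83). Macrophage-like cells numbered 119 and 137, a ratio of 1.19 (0.923 to 1.53) by marker score and 0.499 by whole clusters, so the direction depends on the naming.

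Among the cells that build the callus, fibroblast-like cells were far fewer on day 5. There were 51 of them on day 2 (0.36%) and 4 on day 5 (0.0291%), a ratio of 0.081 (0.0213 to 0.22). The other libraries ranged from 0.156%, in TO 2d 4h, to 3.32%. TO 4d 4h held 1.21% (148 cells), so the untreated libraries showed no steady fall over time. Osteoblast-like cells numbered 189 and 171, a ratio of 0.934 (0.755 to 1.15). The osteoblast-like ratio was 1.47 (1.14 to 1.89) with cells thinned to 1000 UMIs and shallower ones left out, 1.17 with a stricter cell filter and 0.56 by whole clusters, so its direction is not settled. Chondrocyte-like cells numbered 12 and 0, and the count of 0 allows a share of up to 0.0219% of cells, counted as 3 cells of 13723, or 0.0269% by the exact interval. All mesenchymal classes together numbered 267 and 183 cells, a ratio of 0.708 (0.583 to 0.857). Median depth in osteoblast-like cells was 1391 UMIs on day 2 and 9877 on day 5, and after thinning to 1000 UMIs, which left out 675 and 792 shallower cells of all classes, the mesenchymal ratio was 1.03. The parts of the cells left out and of thinning itself in that value were not tested. Whether fewer fibroblasts were present or fewer were freed from the tissue was not tested.

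**Figure D1:**
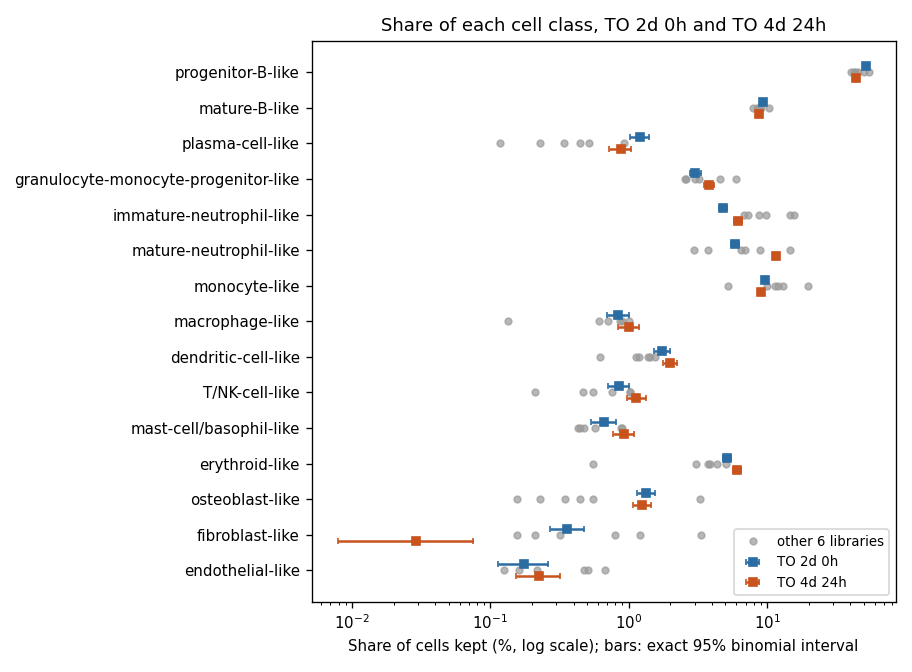
Share of cells kept in each class, in percent on a log axis, for TO 2d 0h (blue), TO 4d 24h (orange) and the 6 other libraries (grey), with bars for the exact 95% binomial interval. Mature-neutrophil-like cells made up 5.87% and 11.6%, and the fibroblast-like point on day 5, 4 cells, lies below all other libraries.

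In mature-neutrophil-like cells, genes for chemokines were far lower on day 5. The level of Cxcl3 was 2612 (2558 to 2668) on day 2 and 21.1 (17.5 to 25.2) on day 5, 124-fold lower (103 to 149.8). Cxcl1 was at 1901 (1854 to 1948) on day 2 and 29.4 (25.1 to 34.2) on day 5, 64.6-fold lower (55.4 to 75.9). Both are ligands of Cxcr2, the receptor by which neutrophils follow one another. Cxcl2, the third ligand of that group, was at 7102 (7012 to 7193) on day 2 and 1354 (1324 to 1384) on day 5, and Ccl3, which attracts monocytes, at 5649 (5569 to 5731) on day 2 and 995 (969 to 1021) on day 5. Of the 9 chemokine genes with at least 50 UMIs over both libraries, 7 were at least 2-fold lower and 1 at least 2-fold higher (Ccl5, at 3.3 and 8.86), with a median log2 ratio of −2.39, where 6.27% and 1.16% of all 7990 genes measured in the class were (median −0.12). Il23a, the subunit specific to interleukin-23, was at 272 (254 to 289.9) on day 2 and 2.66 (1.49 to 4.38) on day 5, and Il1b, encoding interleukin-1 beta and a marker of this class, at 1144 (1108 to 1181) on day 2 and 518 (499 to 537) on day 5.

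RNA of Cxcl3 and Cxcl1 was found in a minority of the cells on day 2, and that of Cxcl2 and Ccl3 in most. After every cell was thinned to 1000 UMIs, which left out 24 cells on day 2 and 58 on day 5, Cxcl3 was detected in 25.8% and 2.15% of mature-neutrophil-like cells on day 2 and day 5, against 1.69% and 0.0837% of progenitor-B-like cells thinned to the same number. Unthinned, the shares were 30.7% and 4.34%. Cxcl1 was detected in 21.9% and 1.83% and Il23a in 10.5% and 0.391%. By contrast Cxcl2 was detected in 52.9% and 46.1% and Ccl3 in 52.8% and 43.2%, so for these 2 genes the level differed much more than the share of cells with a UMI. The background in progenitor-B-like cells was 1.96% and 0.318% for Cxcl1, 0.11% and 0% for Il23a, 4.41% and 1.12% for Cxcl2 and 4.53% and 2.46% for Ccl3.

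The cells with Cxcl3 on day 2 had higher levels of the other chemokines as well. In the 208 cells with a Cxcl3 UMI after thinning and the 599 without, Cxcl1 stood at 9976 and 199 CPM in the unthinned counts, Ccl3 at 25799 and 1407 and Il23a at 1404 and 33.3. The same cells were higher for Hspa5, the main chaperone of the endoplasmic reticulum (11447 and 691), and for Bnip3, a mitophagy receptor induced by low oxygen (628 and 27). Some granulocyte genes were lower in them, S100a9 at 21996 and 154671 and Retnlg, the resistin-like gene of mature neutrophils, at 2404 and 14338. The collagenase gene Mmp8, at 786 and 4577, and the haptoglobin gene Hp, at 36.2 and 277, were lower too. The median depth of the cells with Cxcl3 was 2550.5 against 4006 UMIs. Other granulocyte genes were not lower, with Lcn2 at 96.6 and 31.4, G0s2 at 3001 and 1962 and Nos2 at 1606 and 1519. S100a9, Retnlg and G0s2 are among the markers that chose the cells of this class.

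**Figure D2:**
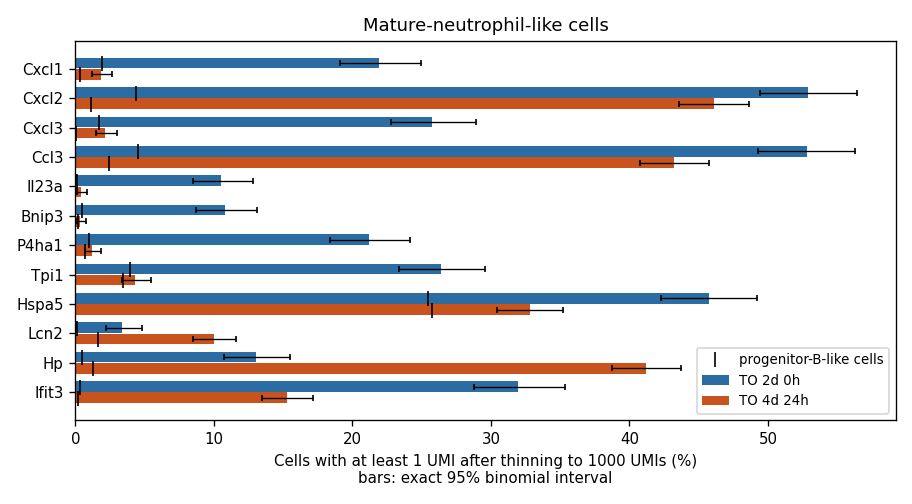
Share of mature-neutrophil-like cells with at least 1 UMI of each gene, in percent, after thinning to 1000 UMIs per cell, at TO 2d 0h (blue) and TO 4d 24h (orange), with exact 95% binomial intervals and black ticks for progenitor-B-like cells of the same library. Cxcl3, Cxcl1, Il23a, Bnip3, P4ha1 and Tpi1 are at 4.31% or less on day 5, and Hp has the largest gain of the genes plotted, 13% and 41.2%.

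Some low-oxygen and glycolysis genes were lower on day 5 in the same class. Bnip3 was at 132 (120.3 to 145) on day 2 and 1.95 (0.973 to 3.49) on day 5, 67.9-fold lower (37.6 to 137), and P4ha1, a collagen prolyl hydroxylase subunit induced in hypoxia, at 275 (258 to 294) on day 2 and 10.8 (8.27 to 13.9) on day 5. The other libraries had 4.62 to 13.6 CPM of Bnip3, with 5.13 in TO 2d 4h of the same day, so the library TO 2d 0h alone was high. The glycolytic enzyme genes Tpi1 (399 and 47.8) and Ldha (717 and 288), the glucose transporter gene Slc2a1 (117 and 38.8) and Vegfa, the vascular growth factor (167 and 67.5), were lower too. Of 27 genes of the list, 11 were at least 2-fold lower and 0 higher, with a median log2 ratio of −0.64, where 6.27% and 1.16% of all genes in the class were. Genes of the integrated and endoplasmic reticulum stress response gave 7 lower and 0 higher of 21, median −0.69, led by Hspa5 at 2564 and 438 and by Hsp90b1 at 177 and 36.1.

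Clusters held this class in different proportions at the 2 times. One led by Cxcl2, Ccl3 and Cxcl3 held 26.7% of it on day 2 and 1 cell on day 5, while another whose leading genes were S100a9, S100a8 and G0s2 held 28.6% and 54.3%. Without the Cxcl2-led cluster, Cxcl2 was at 1191 and 1347 and Ccl3 at 869 and 987 CPM on day 2 and day 5, so both were then slightly higher on day 5, within 2-fold. The direction also turned for Il1b, at 379 and 505, and for Hspa5, at 383 and 438, both within 2-fold. For Cxcl3, at 55.2 and 20.0, and Bnip3, at 5.42 and 1.95, a smaller difference in the same direction was left, as for Cxcl1, at 58.9 and 28.7, while Il23a, at 5.06 and 2.66, was within 2-fold. The medians of the 3 lists were then −0.28 for chemokines (4 of 9 genes at least 2-fold lower), −0.04 for hypoxia and glycolysis (1 of 25) and 0.19 for endoplasmic reticulum stress. Cxcl2, Ccl3, Cxcl3, Cxcl1 and Hspa5 are among the leading genes of that cluster, which lay almost wholly on day 2. Leaving it out must therefore lower their day 2 levels, so these values show where the RNA lay and are no separate result.

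Some interferon-stimulated and antigen-presentation genes were lower in the same class. Of 22 interferon-stimulated genes, 9 were at least 2-fold lower and 0 higher (median −0.90), where 6.27% and 1.16% of all genes in the class were. Ifit3 stood at 639 (612 to 666) on day 2 and 215 (203 to 227) on day 5, and Isg15, the ubiquitin-like modifier, at 247 (230.1 to 264) on day 2 and 97.8 (89.8 to 106) on day 5. In the MHC class II list 4 of 6 genes were at least 2-fold lower, among them Cd74, the invariant chain, at 192 and 70.5. Genes of the mature neutrophil and of its exit from the marrow differed little, 17 of 18 staying within 2-fold. Cxcr2 was at 143 and 137 CPM and Retnlg at 12213 and 13238.

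A smaller group was higher on day 5. Of 15 heat shock chaperone genes 6 were at least 2-fold higher and 0 lower (median 0.78), where 1.16% and 6.27% of all genes in the class were. Among them was Hsp90aa1, an inducible cytosolic chaperone, at 621 (595 to 648) on day 2 and 2094 (2057 to 2132) on day 5. Hspa1a, the inducible Hsp70, was at 98.1 and 243. Hp, which encodes the haemoglobin-binding protein haptoglobin, was at 234 (218 to 251) on day 2 and 1126 (1099 to 1154) on day 5. It was detected in 13% and 41.2% of thinned cells, against 0.481% and 1.31% of progenitor-B-like cells. Pc, the mitochondrial pyruvate carboxylase, was among the 5 largest gains, at 0.3 (0.0076 to 1.67) on day 2 and 16.5 (13.3 to 20.2) on day 5.

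Immature-neutrophil-like cells, which fill the granules of the later neutrophil, had more RNA for several secondary granule proteins on day 5. Lcn2 was at 185 (175 to 197) on day 2 and 3554 (3504 to 3605) on day 5, 19.2-fold higher (18 to 20.4), and was detected in 15.2% and 68.7% of cells thinned to 1000 UMIs, against 0.137% and 1.66% of progenitor-B-like cells. Hp was at 277 (264 to 291) on day 2 and 1466 (1434 to 1498) on day 5, Olfm4, a granule protein of a neutrophil subset, at 646 and 1344 and Mmp8, the neutrophil collagenase, at 941 and 1991. Lcn2, Mmp8 and Ngp are also among the markers that chose the cells of this class, whereas Hp and Olfm4 are not. Of 11 secondary granule genes 4 were at least 2-fold higher and 0 lower (median 0.76), where 1.4% and 2.47% of 9151 genes in the class were (median −0.07). Camp, the cathelicidin gene, stood at 25164 and 25748 and Ngp at 7737 and 13519.9, both within 2-fold.

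The cells of the class were spread differently over clusters at the 2 times. One cluster led by Camp held 50.9% and 33.6% of it on day 2 and day 5, and one that took the mature-neutrophil name, led by S100a9, S100a8 and Anxa1, 15.9% and 41.8%. The list median for secondary granule genes was 0.16 when whole clusters were named and 0.37 when cells were weighted equally. Primary granule genes, made earlier in the lineage, gave 1 higher and 0 lower of 11, median −0.07, where 1.4% and 2.47% of all genes were. In granulocyte-monocyte-progenitor-like cells the defensin-family gene RatNP-3b was at 61925 on day 2 and 30049 on day 5, and 1 of 11 primary granule genes was at least 2-fold lower, against 1.77% of all genes there. RatNP-3b, Defa5 and Np4 belong to a family of near copies between which reads may be split. The elastase gene Elane (3797 and 4983) and the myeloperoxidase gene Mpo (1749 and 2015) were within 2-fold.

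Chemokine genes were lower in immature-neutrophil-like cells as well. There 6 of 10 were at least 2-fold lower (median −2.18), where 2.47% of all genes in the class were. Cxcl3 was at 274 and 4.23 and Cxcl2 at 711 and 43.8 CPM. The Cxcl2-led cluster held 5.88% of this class on day 2. The mitotic genes of the G2/M list had a median of −0.55 with 30 of 30 genes within 2-fold.

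**Figure D3:**
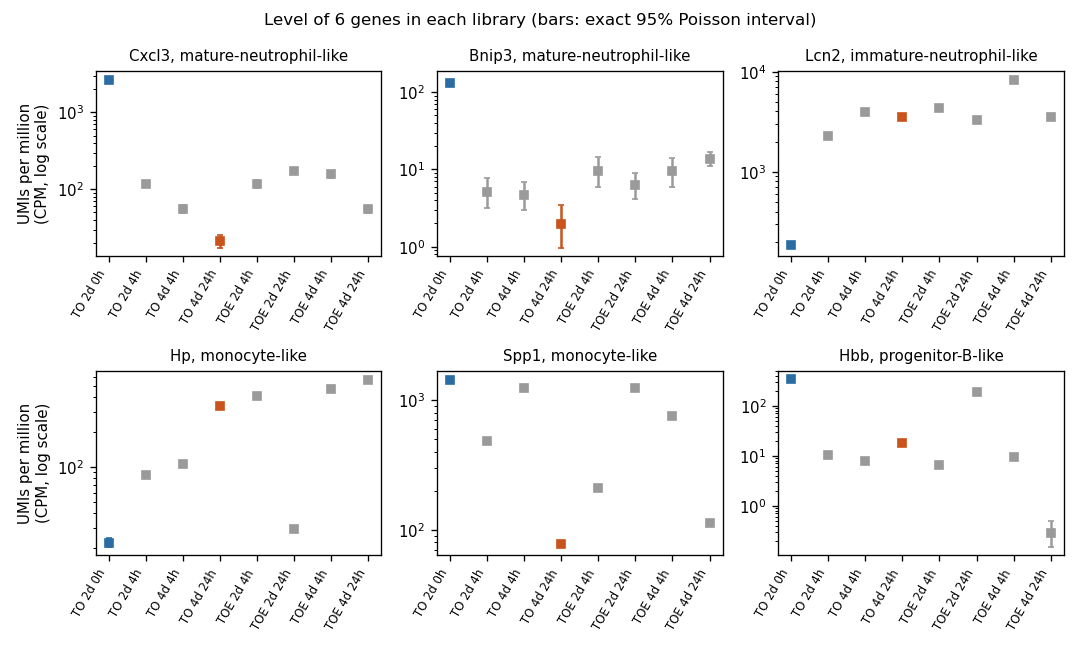
Level of 6 genes in CPM (log axis) in the named class of each of the 8 libraries, with exact 95% Poisson intervals, TO 2d 0h in blue, TO 4d 24h in orange and the others in grey. Cxcl3 and Bnip3 in mature-neutrophil-like cells are highest, and Lcn2 in immature-neutrophil-like cells is lowest, in TO 2d 0h. Spp1 in monocyte-like cells is highest in TO 2d 0h, at 1444, and lowest in TO 4d 24h, at 77.8, with the others between 113 and 1248.

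Monocyte-like cells had lower levels of repair, scavenger and inflammatory genes on day 5. Spp1, encoding the matrix cytokine osteopontin, was at 1444 (1429 to 1459) on day 2 and 77.8 (73.8 to 82) on day 5, 18.6-fold lower (17.6 to 19.6). The other libraries ranged from 113 to 1248. Of the untreated ones, TO 2d 4h had 482 and TO 4d 4h had 1248, so they showed no steady fall over time. Apoe, an apolipoprotein gene of lipid-handling macrophages, was at 1721 (1704 to 1737) on day 2 and 435 (425 to 444) on day 5 and Arg1, the arginase of repair macrophages, at 59.6 (56.6 to 62.8) on day 2 and 12 (10.4 to 13.7) on day 5. Of 28 genes in the repair and scavenger list 14 were at least 2-fold lower and 0 higher (median −1.0), where 3.67% and 0.795% of 12576 genes were (median 0.00). Of the class markers, F13a1, a clotting factor subunit gene, was at 66.7 and 32.4, Vcan, versican, at 1030.4 and 732, and Cd14, the endotoxin co-receptor, at 528 and 313, while the chemokine receptor gene Ccr2 was at 246 and 279.7 and Fn1, fibronectin, at 1435 and 1489.

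A cluster led by Apoe held 17.8% of monocyte-like cells on day 2 and 2.57% on day 5. Without it the list median was −0.41, Spp1 was at 34.8 and 9.42 and Apoe at 77.1 and 33.8. In both libraries the main cluster of the class, 68.2% and 83.3% of its cells, was the same.

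Inflammatory genes were lower on day 5 in monocyte-like cells too. Of 16 chemokine genes 9 were at least 2-fold lower (median −1.23), where 3.67% of all genes in the class were. Nos2, the inducible nitric oxide synthase, was at 404 (396 to 412) on day 2 and 93.2 (88.8 to 97.9) on day 5, Ptgs2, the inducible cyclooxygenase, at 158 and 33.3, and Cxcl1 at 991 and 235. Interferon-stimulated genes had 7 of 28 at least 2-fold lower, median −0.76. In mature-neutrophil-like cells Nos2 was at 1538 and 2066, within 2-fold. Higher on day 5 were Hp, at 22.2 (20.4 to 24.2) on day 2 and 336 (327 to 344) on day 5, and Hspa1a, at 412 and 1675. In the other libraries Hp ranged from 29.4, in the treated library TOE 2d 24h, to 559.5, with 84.9 in TO 2d 4h.

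Macrophage-like cells were few, 119 and 137. Their repair list had 1 gene at least 2-fold higher and 1 lower of 26 (median 0.27), where 1.85% and 3.05% of 4164 genes were. These were Cd36, a scavenger receptor for oxidised lipid, at 39.3 (25.2 to 58.4) on day 2 and 164 (134 to 198) on day 5, and Spp1, at 136 (108 to 168) on day 2 and 10.9 (4.39 to 22.5) on day 5. Mmp12, the macrophage elastase, was at 91.6 and 10.9, and Gpd1, a glycerol phosphate dehydrogenase, at 52.4 and 403.

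When whole clusters were named in place of single cells, macrophage-like cells numbered 416 on day 2 and 201 on day 5, and 58.7% and 15.9% of them were monocyte-like by marker score. In that population C1qa, a complement subunit of resident macrophages, was at 795 and 2551 CPM, the haemoglobin scavenger Cd163 at 38.6 and 195, Igf1 at 72.2 and 266 and the dead-cell receptor Mertk at 20.6 and 62.4. Others of the same list were not higher, with the scavenger receptor gene Msr1 at 271 and 121, Apoe at 7664 and 7625 and Gpnmb, a glycoprotein of lipid-handling macrophages, at 788 and 731. Over the whole repair and scavenger list 12 of 29 genes were at least 2-fold higher and 4 lower (median 0.87), where 3.93% and 3.58% of 9718 genes were (median 0.01). Arg1 was at 139 and 6.7, Nos2 at 543 and 50.5, Ptgs2 at 237 and 16 and Cxcl3 at 1111 and 81. C1qa, Cd163 and Mertk are among the markers that chose macrophage-like cells, which were 28.4% and 67.7% of this population on day 2 and day 5. The part of their differing share, and of that of monocyte-like cells, in these values was not tested.

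In osteoblast-like cells, 189 and 171, single bone genes were past 2-fold in both directions. Bglap, encoding osteocalcin, was at 29849.5 (29632 to 30068) on day 2 and 61038 (60766 to 61311) on day 5, 2.04-fold higher (2.03 to 2.06), and Col1a1, the main collagen of bone, at 75507 (75161 to 75854) on day 2 and 115441 (115066 to 115816) on day 5, within 2-fold. Dmp1, a mineral-regulating protein of cells becoming osteocytes, was at 353 (329.5 to 377) on day 2 and 33.9 (27.8 to 41) on day 5, 10.4-fold lower (8.5 to 12.8), and Mepe, another phosphoprotein of that stage, at 68.9 (58.8 to 80.2) on day 2 and 6.34 (3.87 to 9.79) on day 5. Ibsp, bone sialoprotein, was at 9502 and 3951. Bglap, Col1a1, Dmp1 and Ibsp are among the markers that chose these cells. By whole clusters, where the cluster with the osteoblast name also held most fibroblast-like and all chondrocyte-like cells, the log2 ratios were 2.03 for Bglap, 1.35 for Col1a1, then past 2-fold, −2.37 for Dmp1 and −1.73 for Tnc, against 1.03, 0.61, −3.37 and −2.70. The master regulators Runx2 (348 and 393) and Sp7 (48.3 and 53.5) and the phosphatase gene Alpl (538 and 424) were within 2-fold.

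Of 22 bone formation genes in osteoblast-like cells 1 was at least 2-fold higher and 5 lower (median −0.02), where 0.432% and 3.8% of 8104 genes were (median −0.27). The other libraries ranged from 14196 to 84102 for Bglap and from 38.1 to 671 for Dmp1, so day 5 lay inside the first range and below the second. The list median was 0.73 by whole clusters and 0.20 with cells weighted equally, so its sign is not settled. Tnc, the provisional matrix protein tenascin C, was at 210.4 and 32.3, and Cxcl12, the chemokine that holds blood-forming cells in the marrow, at 30.1 (23.6 to 37.9) on day 2 and 3.49 (1.74 to 6.24) on day 5. Thinning left 110 and 131 osteoblast-like cells, with Dmp1 in 13.6% and 1.53% and Bglap in 77.3% and 90.1% of them, against 0.0962% and 0.0335% and 12.3% and 24.5% of progenitor-B-like cells. Tnc was in 6.36% and 3.05% of the thinned osteoblast-like cells, with overlapping intervals (2.6 to 12.7 and 0.838 to 7.63), and in 13.8% and 14.6% of unthinned cells. Mepe was in 4.55% and 0% of thinned cells, also with overlapping intervals (1.49 to 10.3 and 0 to 2.78). Unthinned, Mepe was in 9.52% and 7.6% and Dmp1 in 22.8% and 15.8%. The largest loss by log2 ratio was that of the cartilage collagen gene Col2a1, a marker of another cell type, with 146 UMIs in 40 cells on day 2 (60.2 CPM) and 0 on day 5, at least 63.4-fold lower against a floor of 3 UMIs. Its part in the other differences of this class was not tested. Pappa, a protease that frees insulin-like growth factors, and S100b were among the 5 largest losses, at 26.8 and 0.951 and 26.8 and 0.951, and Dach1, a transcription factor gene, among the 5 largest gains, at 2.48 and 14.9.

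Pooled over all mesenchymal classes, cartilage and fibrous matrix genes were far lower on day 5. Col2a1, the collagen of cartilage, had 2508 UMIs on day 2 (497 CPM) and 0 on day 5, at least 563-fold lower against a floor of 3 UMIs. In the 6 other libraries it ranged from 0.259 to 1.54 CPM, with 0.665 in TO 2d 4h, so that for this gene the library TO 2d 0h stood apart. Prg4, the lubricin of joint surfaces, was at 184 and 0.294, the cartilage proteoglycan gene Acan at 193 and 10.9, and Comp, a matrix protein of cartilage and tendon, at 79.7 and 0.294. Over the other libraries Prg4 ranged from 1.47 to 234, with 2.0 in TO 2d 4h and 48.2 in TO 4d 4h, so day 2 did not stand apart for this gene. Snorc, another cartilage proteoglycan gene, had 146 UMIs and 0. Col2a1, Acan, Comp and Snorc are among the markers that chose chondrocyte-like cells, which numbered 12 and 0. Genes with 0 UMIs on day 5 met the UMI minimum through day 2 alone. The count for the cartilage list therefore describes the pool and is no separate result. Of 13 cartilage genes 10 were at least 2-fold lower and 1 higher (median −4.13, the same with genes at 0 set to the floor and −3.01 with a prior of 5 UMIs added in each library), where 14.4% and 0.998% of 10024 genes were (median −0.41).

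Many proteoglycan, collagen and growth factor genes were lower in the pool as well. Of 24 genes in the list of small leucine-rich proteoglycans and provisional matrix 16 were at least 2-fold lower and 1 higher (median −1.71). Of all genes in the pool 14.4% were lower and 0.998% higher (median −0.41), which also applies to the lists below. Postn, the periosteal adhesion protein periostin, was at 344 (328 to 360.2) on day 2 and 36.5 (30.4 to 43.5) on day 5 and Fbln2, a fibulin, at 112 and 0.589, while Lum, lumican, was at 859.7 and 854 and Dcn, decorin, at 999.6 and 1729. Collagen and collagen-processing genes gave 11 lower and 2 higher of 27, with Col3a1, the collagen of early granulation tissue, at 3357 and 1069.5 and Col1a1 at 44523 and 108411. Postn, Lum, Dcn and Col3a1 are among the markers that chose fibroblast-like cells, and Col1a1 among those for osteoblast-like cells. In the insulin-like growth factor list 7 of 11 were lower, with Igf1 at 242 and 27.7. Mitotic genes of the G2/M list were lower in 29 of 30, with a median of −1.85 and Mki67 at 128 and 57.1, but with cells weighted equally only 5 of 30 were (median −0.53).

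In the pool the bone formation list had a median above 0 (0.69), with 6 of 22 genes at least 2-fold higher, 4 lower and the rest within 2-fold. Of all genes in the pool 0.998% were higher and 14.4% lower. Bglap was at 14465 and 56834. Osteoblast-like cells were 189 of 267 mesenchymal cells on day 2 and 171 of 183 on day 5, so the pool differs in composition. In osteoblast-like cells alone the list medians were −0.02 for bone formation, −0.56 for proteoglycans and provisional matrix, −0.68 for G2/M and −0.83 for cartilage. There 3 of 7 cartilage genes were lower, beside 3.8% of all genes in that class. With a median of all genes in the pool of −0.41, the split of genes past 2-fold also depends on scaling, with 100 higher and 1443 lower as counted and 372 higher and 663 lower after the median was set to 0.

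**Figure D4:**
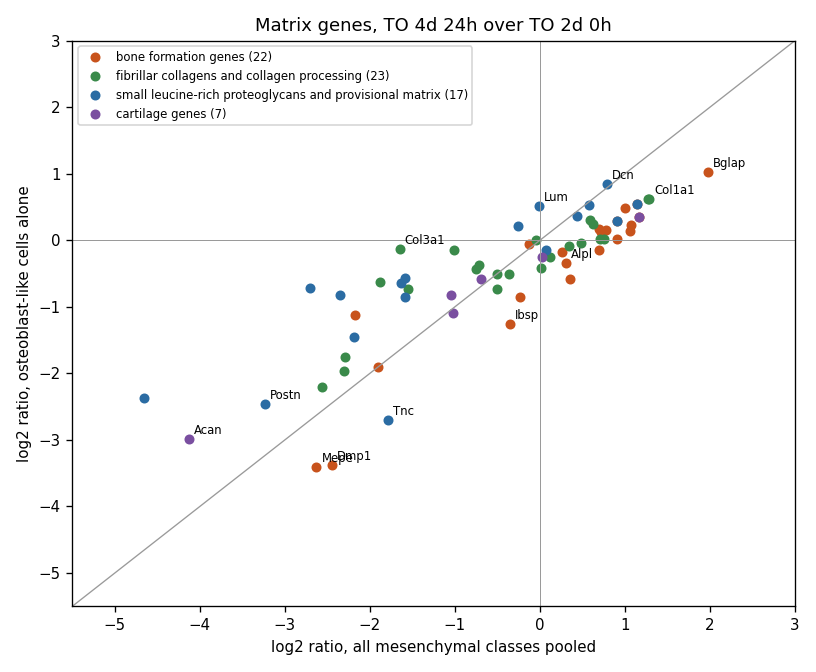
Log2 ratio of matrix genes, TO 4d 24h over TO 2d 0h, in all mesenchymal classes pooled (horizontal) and in osteoblast-like cells alone (vertical), for genes with at least 50 UMIs in both settings and coloured by list. Most proteoglycan and cartilage genes lie further to the left than down, whereas Dmp1 and Mepe lie further down and Bglap is above 0 on both axes.

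In B-lineage cells, the largest share of the cells, few genes were past 2-fold over all genes. The counts in the lists of their own programme do not set these lists apart from all genes. In progenitor-B-like cells 25 of 25 genes of receptor assembly and the pre-B stage were within 2-fold (median −0.10), where 0.685% of 15335 genes were at least 2-fold higher and 3.32% lower. The recombinase gene Rag1 was at 195 (191 to 199) on day 2 and 144 (140.3 to 147) on day 5, Il7r, the receptor for the growth factor of these cells, at 108 and 77.5, and the surrogate light chain gene Igll1 at 277 and 286. Interferon-stimulated genes gave 6 lower and 2 higher of 28, the latter being Bst2 (20.2 and 50.5) and Ifi27 (6.83 and 23).

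In mature-B-like cells the 10 MHC class II genes were all within 2-fold, with a median of 0.42 and RT1-Da at 1329 and 1981, and 0.491% of 10176 genes in the class were at least 2-fold higher and 2.0% lower. A cluster led by Cd74 and RT1-Da held 54.2% of the class on day 2 and 77.5% on day 5. Another, led by Cd74 and Ms4a1, held 30.3% and 7.82%. Their part in these values was not tested. Among 24 interferon-stimulated genes 5 were lower and 1 higher, with Ifi27 at 4.54 (2.97 to 6.66) on day 2 and 31.1 (26.5 to 36.2) on day 5.

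T/NK-cell-like cells, 120 and 156, had higher levels of some mitotic genes on day 5, without a clear difference in the share of cells with Mki67. Of 14 G2/M genes 9 were at least 2-fold higher (median 1.23), against 1.06% of 6010 genes. The median was 0.62 with cells weighted equally, 0.71 by whole clusters (7 of 27) and 0.88 with a minimum of 20 UMIs (14 of 29). All-gene shares under these settings are not given here. In a small class, genes high in 1 library meet the UMI minimum more readily. The counts therefore describe the genes measured and do not test the list. Mki67 was at 66.4 (52.6 to 82.8) on day 2 and 196 (173 to 221) on day 5, below the 136 to 322 of the other libraries on day 2 and inside that range on day 5. It was detected in 5.83% and 6.45% of cells thinned to 1000 UMIs and 23.3% and 25.6% unthinned, against 16.1% and 17.7% of thinned progenitor-B-like cells, which divide. Klre1, a receptor gene of natural killer cells, was at 3.36 (0.917 to 8.61) on day 2 and 120.2 (103 to 140.1) on day 5. In mast-cell/basophil-like cells Ccl2, a monocyte attractant, was at 620.1 (570.2 to 673) on day 2 and 70.9 (55.8 to 88.9) on day 5 and Ptgs2 at 150.1 (126 to 177) on day 2 and 644 (596 to 694) on day 5, in the opposite direction to its difference in monocyte-like cells.

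Among erythroid-like cells 20 of 22 haemoglobin and haem synthesis genes were within 2-fold, 2 being lower, beside 2.86% of 10615 genes in the class. Hba-a1 was at 51246 and 52117 CPM and Alas2, the first enzyme of haem synthesis, at 429 and 417. The lower genes were Hba-a3 and Hbb, the latter at 33128 (33015 to 33243) on day 2 and 2781 (2750.1 to 2813) on day 5, although Hbb-bs, a near copy of it, was at 9729.9 and 14096. Reads of the near-identical globin genes may be split between copies, and Hbb ranged from 48 to 83635 over the other libraries, so its values are uncertain. A cluster led by Hbb held 10.9% of the class on day 2 and 0.965% on day 5, and its part in the difference was not tested.

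Some differences were found in nearly every class. Of 5853 genes measured in at least 10 of the 12 classes compared, 6 were past 2-fold in the same direction in all of them, Cxcl1 and Hbb lower and Hp, Fam111a, Ube2s-ps3 and LOC100360791 higher. In progenitor-B-like cells Cxcl1 was at 28.8 and 2.13 CPM, Hp at 3.68 and 14.7, and Hbb at 338 and 17.8. Whether these 3 genes' UMIs came from the cells or from free RNA was not tested. Fam111a, a protease gene, stood at 76.1 and 445 there, with 55.6 to 709.8 in the other libraries. The pseudogene Ube2s-ps3, at 3.64 and 96.9, is a near copy of a functional gene and uncertain for that reason. In the treated library TOE 2d 24h, Fam111a was at 55.6, Ube2s-ps3 at 2.44 and Hbb at 186. In TO 2d 4h they were at 503, 178.5 and 10.1. For these genes TO 2d 0h was thus nearest TOE 2d 24h, and the other libraries, TO 2d 4h of the same day included, stood apart from both.

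Several gene lists lay on the same side of the all-gene median in most classes. Chemokines had a median below that of all genes in 11 of 11 classes with at least 5 measured members, and interferon-stimulated genes in 11 of 11. Heat shock chaperones were above it in 12 of 12 classes, and secondary granule genes in 11 of 12. The part of free RNA in these medians was not tested. The immediate-early transcription factor genes, which answer cell dissociation and other acute stimuli, had medians between −0.15 and 0.32. The 7 small vesicle markers, such as Cd63 and Flot1, had medians between −0.39 and 0.24. In the mesenchymal pool Thbs1, the matrix protein thrombospondin-1, was at 304 and 454 and Thy1, a surface marker of fibroblasts, at 200.2 and 43.9.

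**Figure D5:**
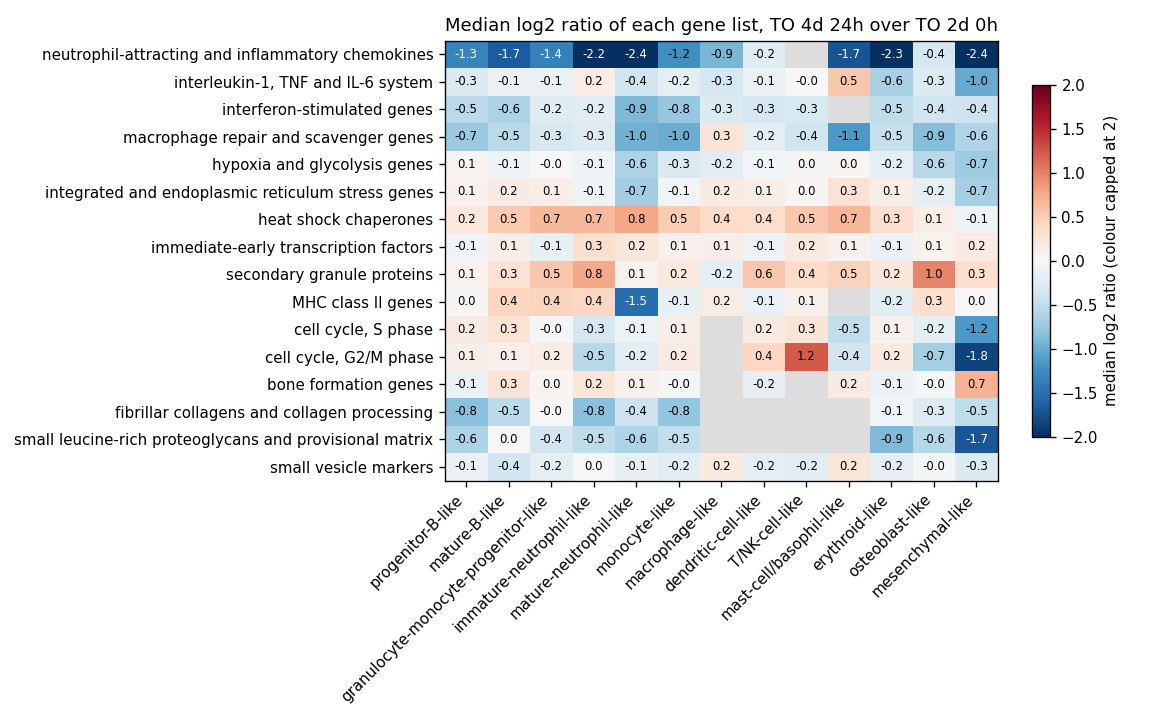
Median log2 ratio, TO 4d 24h over TO 2d 0h, of 16 gene lists (rows) in 13 cell classes (columns), printed in each square and coloured from −2 (blue) to 2 (red), with grey squares where fewer than 5 members had 50 UMIs. The chemokine row is below 0 in every class shown, and the heat shock row is above 0 in all but the mesenchymal pool.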

How the data were processed

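Tissue around tibial osteotomies of rats was profiled by droplet single-cell RNA sequencing (10x Genomics 3' chemistry). The authors deposited, per library, raw UMI counts for 41801 genes, made with Cell Ranger 9.0.0, and the submitters' processing notes also name Seurat, R 4.0.3, mRatBN7.2 and GRCh38. Counts were read with Python 3.11.15 and Scanpy 1.11.5. Total UMIs were 132740170 and 122946977. Cells under 200 genes or over 20% mitochondrial UMIs were dropped, and Scrublet scores above 0.25 marked doublets, since its automatic threshold marked 1 and 155 cells. Each cell took the class with the highest mean scaled marker level, if at least 3 markers were found. UMIs were summed per class and library, with a prior of 0.5 UMI in log2 ratios, and genes needed 50 UMIs over both libraries. Intervals were Clopper-Pearson, conditional binomial and Poisson. Named genes were the 5 largest gains and losses per class, list members, markers and genes named by the study, and the genes of the Cxcl3 comparison and the macrophage clusters were chosen after their values were seen. Cells, classes and gene lists were chosen with earlier results of these data known. Alternatives changed the cell filter, doublets, naming (Leiden clusters), denominator, thinning to 1000 UMIs, UMI minimum, prior, centring and weighting of cells. The sums, intervals and counts were tested on simulated data. A library TO 2d 24h was not analysed here.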

Additional observations from a re-analysis of the deposited data

How the results depend on the processing

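The 78 values set under alternatives gave 345 comparisons, of which 240 stayed within their counting interval or limit and 105 moved beyond it. Leaving aside counts of genes, 14 values lay on the other side of no difference. Naming whole Leiden clusters gave share ratios (day 5 over day 2) of 1.56 for granulocyte-monocyte-progenitor-like, 0.852 for immature-neutrophil-like (reversed), 1.17 for monocyte-like (0.935 as reported), 0.499 for macrophage-like (1.19 as reported), 1.36 for erythroid-like and 0.560 for mesenchymal-like and for osteoblast-like cells. Osteoblast-like cells gave 1.17 with a stricter filter, 1.04 with no filter and 1.47 thinned, against 0.934, and their bone formation median, −0.021, was 0.25 after centring, 0.20 with cells weighted equally and 0.73 under Leiden naming. A stricter cell filter gave 1.34 for erythroid-like and 0.977 for macrophage-like cells, and thinning gave 1.03 for mesenchymal-like cells (reversed). Median log2 ratios in mature-neutrophil-like cells were −2.87 for chemokines and 0.40 for heat shock chaperones under Leiden naming, and −2.72 for chemokines and −0.96 for hypoxia genes with cells weighted equally. Without the Cxcl2-led cluster, an alternative chosen after seeing the data, they were −0.28, −0.043 and, for endoplasmic reticulum stress, 0.19 (reversed), Cxcl2 itself had a log2 ratio of 0.18 (reversed), and 217 genes were at least 2-fold lower in place of 501. Secondary granule genes in immature-neutrophil-like cells gave 0.65 with 20 UMIs as the minimum, 0.83 after centring, 0.37 with cells weighted equally and 0.16 under Leiden naming. Repair genes in monocyte-like cells gave −0.39 under Leiden naming and −0.41 without the Apoe-led cluster, also chosen after seeing the data, which left 293 genes lower in place of 462. In mesenchymal-like cells centring gave −1.30 for proteoglycans, 1.10 for bone formation, −0.10 for collagens, and 372 genes higher and 663 lower. Equal weighting of cells gave 0.48 for bone formation, −0.53 for G2/M and −0.74 for collagens. Osteoblast-like cells alone, likewise chosen after seeing the data, gave −0.56 for proteoglycans, −0.021 for bone formation (reversed), −0.68 for G2/M, −0.25 for collagens, −0.83 for cartilage, and 35 genes higher and 308 lower. With 20 UMIs as the minimum, the genes higher and lower were 221 and 931 in progenitor-B-like, 200 and 994 in mature-neutrophil-like and 212 and 827 in monocyte-like cells, and 192 were higher in mesenchymal-like cells. The alternatives' own construction sets which cells and genes enter, and beyond that the cause of each move was not tested. No paired analysis was possible because each side holds 1 library and no test was made, and for the same reason no library could be left out. Small classes, such as macrophage-like cells with 119 and 137, have wide counting intervals.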
